A study of Arabidopsis thaliana with 12 samples.

Results

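The beta-glucosidase genes BGLU33 (AT2G32860), BGLU40 (AT1G26560) and BGLU44 (AT3G18080) are described here across 4 groups of Arabidopsis thaliana seedlings. They were picked by name for a fall with dexamethasone in seedlings that carry 35S:LOB-GR, so their values in that comparison describe the choice and were not tested. Each gene had 1 probe set that the array annotation assigns to it alone. The 3 genes belong to the 22 genes of glycoside hydrolase family 1 that were measured this way, of 48 on the family list, and to 13513 such one-gene probe sets in all.

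Seedlings were 9 days old, of the Col-0 background, and were either wild type (Columbia) or 35S:LOB-GR. In the latter, the constitutive 35S promoter drives a fusion of the boundary transcription factor LATERAL ORGAN BOUNDARIES (LOB) with the steroid-binding part of the glucocorticoid receptor (GR). Without a glucocorticoid such fusions stay outside the nucleus. Both genotypes were flooded with MS medium and shaken for 4 h, with 5 µM dexamethasone (DEX) or without it (mock), which gave 3 arrays in each of the 4 groups. The labels call the arrays biological replicates and do not name the transgenic line, so its clone or insertion cannot be told apart from the transgene itself. The transcript of LOB itself was not analysed here.

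Beta-glucosidases of this family remove a glucose or a related sugar from small glycosides and short oligosaccharides. Plants use them to release hormones, defence compounds and lignin precursors from stored glucosides and to trim fragments of cell wall polysaccharides. BGLU33 is known as a vacuolar enzyme that frees abscisic acid from its glucose ester. BGLU44 is known to act on beta-mannosides, among them short chains derived from wall mannan.

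The deposited values are log2 expression values made with RMA, a method that corrects background, gives all arrays one distribution and summarises the probes of each set. They ran from 2.71 to 14.14, and the array medians from 5.88 to 5.97. Within groups the lowest correlation of 2 arrays was 0.9922, taken over probe sets, which do not count as independent. In 35S:LOB-GR, DEX replicate 1 departed most of all 12 arrays from its group, by 0.166 (log2, root mean square over probe sets). Leaf and root transcripts were both present, with means over the mock arrays of Columbia of 13.82 for RCA, which activates Rubisco, and 12.38 for the root glucosidase PYK10. The leaf marker list had 2 of 8 genes measured and the root list 4 of 8, and none of these 6 genes was called for DEX in either genotype, although some were called between genotypes, as given with that comparison. In whole seedlings, fewer cells of a type and less RNA per cell cannot be told apart.

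In 35S:LOB-GR all 3 genes were lower under DEX, and by much the same amount. BGLU44 measured 10.56, 10.47 and 10.32 (log2) in the 3 mock arrays and 9.73, 9.71 and 9.64 in the 3 DEX arrays. Every DEX array lay below every mock array, as was so for 11.0% of all probe sets, and the DEX arrays lay close together. The difference was -0.75 ± 0.09 (log2, SE of the limma fit), a level 1.69-fold lower.

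BGLU40 measured 6.65, 6.48 and 6.68 in the mock arrays of 35S:LOB-GR and 5.82, 5.71 and 5.82 in its DEX arrays. Here too the groups did not overlap, and the SD was 0.11 under mock and 0.06 under DEX (n = 3). The difference was -0.82 ± 0.09, a level 1.77-fold lower.

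BGLU33 measured 6.06, 6.33 and 6.24 in the mock arrays and 5.07, 5.35 and 5.80 in the DEX arrays. The groups did not overlap, but the DEX arrays were spread widely, with an SD of 0.37 (n = 3). The mean difference was -0.80 ± 0.17, a level 1.75-fold lower. It was -0.63 without DEX replicate 1, the lowest array for BGLU33 and the one farthest from its group over all probe sets.

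**Figure D1:**
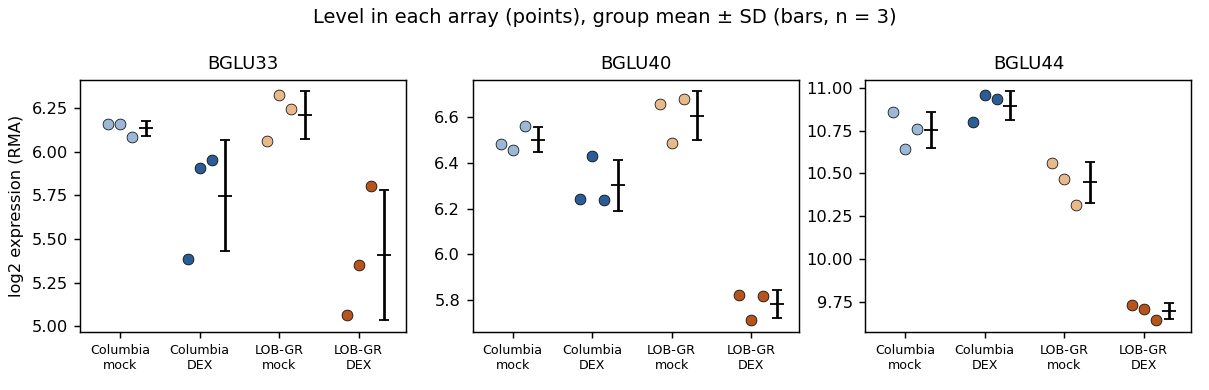
Log2 expression (vertical axis, RMA) of BGLU33, BGLU40 and BGLU44 in the 4 groups (horizontal axis); points are the 3 arrays of a group and bars the group mean ± SD, and each panel has its own vertical range, which does not start at 0. The DEX arrays of 35S:LOB-GR lie below the mock arrays of that genotype in every panel, and the BGLU33 DEX arrays of both genotypes are the most widely spread.

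Some probe sets fell further with DEX in 35S:LOB-GR, where the differences of all probe sets had an SD of 0.285 (log2). Of the 22746 probe sets, 375 had a lower difference than BGLU40, 402 than BGLU33 and 465 than BGLU44. Limma called 5.99% of all probe sets lower for DEX in 35S:LOB-GR at an adjusted p under 0.05 and 3.97% higher. After each array's median was subtracted, 1311 probe sets were called higher and 1163 lower, against 904 and 1363 without it. The differences of the 3 genes kept their sign under that scaling, at -0.76 for BGLU33, -0.78 for BGLU40 and -0.71 for BGLU44. The smallest of the 3 differences was -0.75, and the next lowest of the 22 measured family genes was -0.31 for BGLU46. The 3 genes were chosen for this fall, so that gap describes the choice. The listed family genes without a one-gene probe set were not seen.

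The response to DEX in Columbia was measured on arrays that played no part in choosing the genes, and it asks whether DEX moved them without the fusion. None of the 3 genes was called by limma, although 2 of them had an unadjusted p under 0.05, as did 2886 of the 22746 probe sets. Limma called 13 probe sets in this comparison, or 0.0572% of those tested, 3 higher and 10 lower, and 7 higher and 10 lower after array medians were subtracted.

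BGLU33 measured 6.16, 6.16 and 6.08 in the mock arrays of Columbia and 5.38, 5.90 and 5.95 under DEX. The DEX arrays lay below the mock arrays, as was so for 10.6% of all probe sets in this comparison, and DEX replicate 1 stood well below the other two. The difference was -0.39 ± 0.17, with a 95% interval from -0.75 to -0.03 (limma unadjusted p = 0.0367, adjusted p = 0.359). Without DEX replicate 1 of Columbia it was -0.20.

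BGLU40 measured 6.48, 6.46 and 6.56 in the mock arrays of Columbia and 6.24, 6.43 and 6.24 under DEX. These groups did not overlap either, but the highest DEX array and the lowest mock array nearly met. The difference was -0.20 ± 0.09, with a 95% interval from -0.39 to -0.01 (limma unadjusted p = 0.0407, adjusted p = 0.370).

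BGLU44 measured 10.86, 10.64 and 10.76 in the mock arrays of Columbia and 10.80, 10.96 and 10.93 under DEX. The groups overlapped, and the mean was slightly higher under DEX. The difference was 0.14 ± 0.09, with a 95% interval from -0.05 to 0.34 (limma adjusted p = 0.561). Without mock replicate 2 of Columbia it was 0.09. Whether the Columbia responses of the 3 genes differ from each other was not tested. As a sign of RNA quality, the excess of the actin control's 3' over its 5' probe set was 1.22 ± 0.18 for Columbia mock arrays and 0.94 ± 0.07 for Columbia DEX arrays (log2, SD, n = 3). For the GAPDH control it was -0.17 ± 0.07 and -0.21 ± 0.08. Their part in these values was not tested.

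The DEX response in 35S:LOB-GR less that in Columbia holds the comparison for which the genes were chosen, so its values are descriptive too. It was -0.90 ± 0.13 for BGLU44, with a 95% interval from -1.17 to -0.62. For BGLU40 it was -0.62 ± 0.13, with an interval from -0.89 to -0.36. BGLU33 had the smallest value, -0.42 ± 0.24, and its interval from -0.93 to 0.09 held 0. Leaving out DEX replicate 1 of 35S:LOB-GR brought the BGLU33 value to -0.25. The order of these values follows the Columbia means, which ran from -0.39 for BGLU33 to 0.14 for BGLU44, while the means in 35S:LOB-GR lay between -0.82 and -0.75. Of all probe sets, limma called 2.95% lower and 1.82% higher for this difference, 4.77% in all.

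The genotypes were also compared within each treatment. These comparisons share the 35S:LOB-GR arrays with the one that chose the genes, so they are given as values without a test. Under mock, BGLU44 was lower in 35S:LOB-GR, and the highest array of that group (10.56) lay under the lowest of Columbia (10.64). The difference was -0.31 ± 0.09, a level 1.24-fold lower. In 13.0% of all probe sets the mock arrays of 35S:LOB-GR lay below those of Columbia in this way. For BGLU40 the mock difference was 0.11 ± 0.09 and for BGLU33 0.08 ± 0.17, and the arrays of the genotypes overlapped for both. Single mock arrays of 35S:LOB-GR moved these small values: BGLU33 was at 0.15 without replicate 1 and 0.02 without replicate 2, and BGLU40 at 0.17 without replicate 2 and 0.07 without replicate 3.

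Under DEX, BGLU44 differed most, at 9.69 ± 0.05 in 35S:LOB-GR against 10.90 ± 0.08 in Columbia (SD, n = 3). That is a difference of -1.20 ± 0.09 (SE), a level 2.30-fold lower. BGLU40 was at 5.78 ± 0.06 against 6.30 ± 0.11, a difference of -0.52 ± 0.09. For BGLU44 and BGLU40 all arrays of 35S:LOB-GR lay below all arrays of Columbia, as was so for 15.3% of all probe sets. BGLU33 was at 5.41 ± 0.37 against 5.75 ± 0.32, a difference of -0.34 ± 0.17, and its arrays overlapped. Without DEX replicate 1 of 35S:LOB-GR that difference was -0.17, without its DEX replicate 3 it was -0.54, and without DEX replicate 1 of Columbia it was -0.52.

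Organ markers and RNA quality controls also differed between the genotypes. Of the 2 leaf genes, PSAN, a photosystem I subunit, was lower in 35S:LOB-GR under mock, by a log2 difference of -0.56 ± 0.10 (limma adjusted p = 0.00131), and under DEX, by -0.79 ± 0.10 (limma adjusted p = 2.42e-05), and RCA was not called. Of the 4 root genes none was called under mock, and under DEX PYK10 was higher by 0.47 ± 0.10 (limma adjusted p = 0.00234) and NAI2 by 0.85 ± 0.12 (limma adjusted p = 1.40e-04), while the root hair genes EXPA7 and EXPA18 were not called. Of all probe sets, limma called 5.10% lower and 5.76% higher in 35S:LOB-GR under mock, and 9.74% lower and 11.7% higher under DEX. The summed level of the leaf genes (log2 of the sum) ran from 14.35 to 14.38 in Columbia mock, 14.32 to 14.41 in Columbia DEX, 14.04 to 14.23 in 35S:LOB-GR mock and 13.96 to 14.03 in 35S:LOB-GR DEX arrays. That of the root genes ran from 12.56 to 12.72, 12.43 to 12.61, 12.74 to 12.99 and 12.98 to 13.11 in the same groups. Nearly all of the root sum came from PYK10 and NAI2, with means of 12.38 and 10.03 in Columbia mock. EXPA7 and EXPA18, at 5.19 and 5.24 there, added little, so the sum does not stand for root tissue as a whole. The excess of 3' over 5' signal in 35S:LOB-GR was 1.10 ± 0.03 under mock and 1.10 ± 0.06 under DEX for actin, and -0.36 ± 0.09 and -0.32 ± 0.05 for GAPDH (log2, SD, n = 3). The part of these markers and controls in the genotype differences of the 3 genes was not tested.

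The order of the 4 group levels was the same for BGLU33 and BGLU40 and another for BGLU44. For BGLU33 it ran from 35S:LOB-GR mock (6.21) over Columbia mock (6.13) and Columbia DEX (5.75) to 35S:LOB-GR DEX (5.41). The 2 mock groups overlapped, as did the 2 DEX groups, and all 6 mock arrays lay above all 6 DEX arrays. The share of all probe sets that separate in this way was not computed, and the arrays include those that chose the gene. For BGLU40 it ran from 6.61 over 6.50 and 6.30 to 5.78 in the same groups, and the mock groups were the only neighbours that overlapped. For BGLU44 it ran from Columbia DEX (10.90) over Columbia mock (10.75) and 35S:LOB-GR mock (10.45) to 35S:LOB-GR DEX (9.69), and the 2 Columbia groups overlapped.

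Profiles over the 12 arrays were compared after each probe set was centred on its own mean, with the root mean square distance as the measure (log2, 0 for identical profiles). BGLU33 and BGLU40 lay 0.229 apart, BGLU40 and BGLU44 0.317, and BGLU33 and BGLU44 0.426. These arrays include the 35S:LOB-GR arrays that chose the genes, so nearness between them follows in part from the choice and was not tested. Among 13512 one-gene probe sets ranked by nearness, BGLU40 had rank 15 for BGLU33. BGLU44 had rank 2655 for BGLU40 and rank 7460 for BGLU33, so its profile was not close to either. The one-gene probe set nearest to BGLU33 was that of GT2, a trihelix transcription factor gene, at 0.105. Like BGLU33, GT2 was lowest in the first DEX replicate of each genotype, and its DEX difference was -0.36 in Columbia and -0.94 in 35S:LOB-GR. The next nearest were AT5G63710 (0.175), AT1G76270 (0.187), AT5G16730 (0.194) and AT2G46630 (0.200).

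Nearest to BGLU40 was AT2G40435, at a distance of 0.123, followed by AT5G63710 (0.135), AT3G25570 (0.143), AT1G61740 (0.144) and AT1G50280 (0.146). AT5G63710 was thus among the 5 nearest of both BGLU33 and BGLU40, with DEX differences of -0.40 in Columbia and -0.84 in 35S:LOB-GR. Nearest to BGLU44 was AT3G16370, at 0.117, followed by AT1G78210 (0.121), AT4G17245 (0.136), AT3G43960 (0.140) and AT3G57800 (0.144). AT3G16370 had group means of 12.69 and 12.83 in Columbia mock and DEX and of 12.42 and 11.72 in 35S:LOB-GR mock and DEX, in the same order as BGLU44. The 5 nearest of BGLU44 were shared with neither of the other genes.

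**Figure D2:**
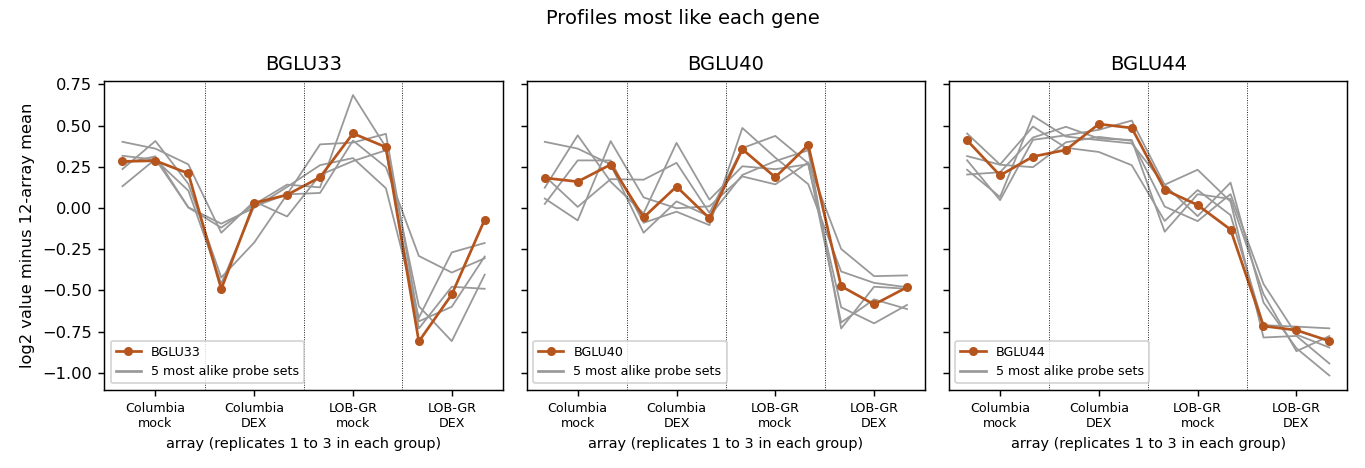
Log2 value minus the 12-array mean (vertical axis) for BGLU33, BGLU40 and BGLU44 (orange) and the 5 one-gene probe sets nearest to each (grey), over the 12 arrays (horizontal axis, 3 to a group, dotted lines between groups); lines join arrays for legibility and replicates have no order. BGLU33 itself has its lowest DEX array in replicate 1 of both genotypes, and BGLU44 itself has a higher mean under DEX than under mock in Columbia (10.90 against 10.75).

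Of the other 19 measured family genes, 12 had a mean below 4.12, the lower quartile of all probe set means, and were near the low end of the values. No detection calls were used, so a change in these genes could be compressed by background. Their largest absolute difference in any comparison of 2 groups was 0.22. They included BGLU43, the gene next to BGLU44 on chromosome 3, with a mean of 3.40 and a DEX difference of -0.04 in 35S:LOB-GR. The other measured neighbours, within 2 protein-coding genes on either side of a member in the TAIR10.1 gene order, were not called for DEX in 35S:LOB-GR. They were AT2G32850 (0.03) beside BGLU33, AT1G26540 (-0.36), AT1G26550 (0.09) and AT1G26580 (-0.05) beside BGLU40, and AT3G18060 (-0.15) beside BGLU44.

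For DEX in 35S:LOB-GR, 1 of these 19 genes was called lower and none higher, with 9.97% of all probe sets called in either direction. Their differences ranged from -0.31 to 0.25, with a median of -0.00 against 0.02 over all probe sets. The gene called was BGLU46, whose enzyme acts on monolignol glucosides, the stored form of lignin precursors, at -0.31 ± 0.09 (limma adjusted p = 0.0286). That call ended after array medians were subtracted (limma adjusted p = 0.0671), when the 6 arrays of 35S:LOB-GR were fitted alone (limma adjusted p = 0.117) and without mock replicate 1 or DEX replicate 1 or 3 of 35S:LOB-GR.

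**Figure D3:**
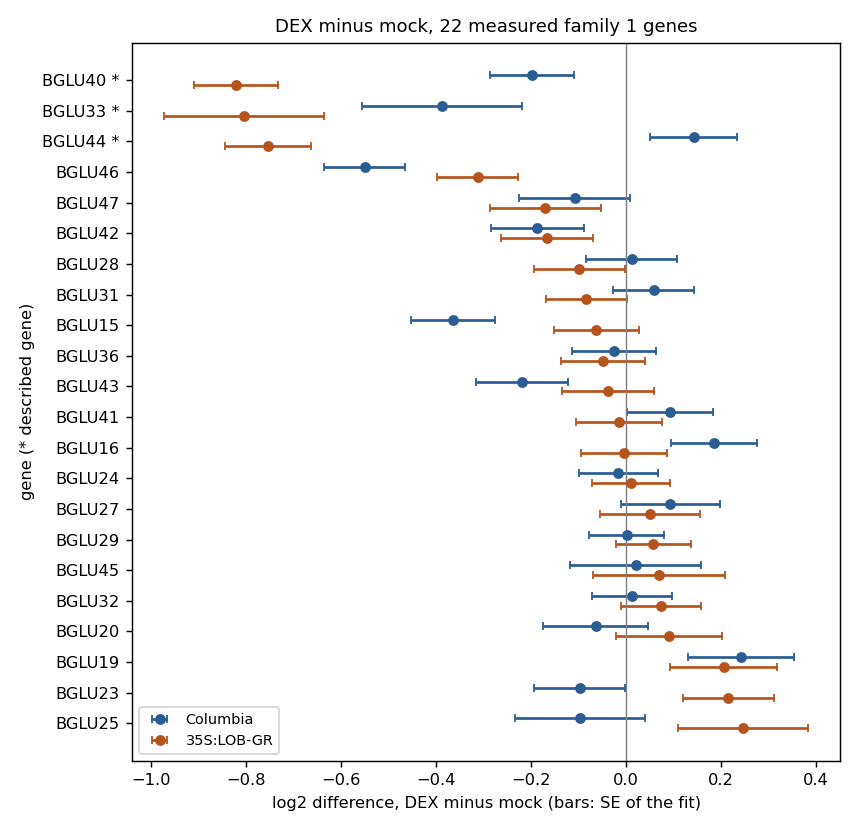
Log2 difference, DEX minus mock (horizontal axis), of the 22 measured family genes (vertical axis, sorted by the difference in 35S:LOB-GR) in Columbia (blue) and 35S:LOB-GR (orange); points are differences of 3 arrays against 3 and bars the SE of the limma fit. The 3 genes described, marked by asterisks, lie between -0.82 and -0.75 in 35S:LOB-GR, and their Columbia values run from -0.39 to 0.14.

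In Columbia the family gene called for DEX was also BGLU46, which fell by 0.55 ± 0.09 (limma adjusted p = 0.0325). Its level was 4.79, 4.78 and 4.79 in the mock arrays and 4.25, 4.25 and 4.21 under DEX, so the groups lay apart and each was tight. The call ended without mock replicate 1 or 2 or any DEX replicate of Columbia (limma adjusted p up to 0.178), with differences of -0.56 to -0.54. The DEX responses of BGLU46 in the genotypes were not called different (limma adjusted p = 0.346).

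Under mock, 2 of the 19 genes were lower in 35S:LOB-GR and none higher, beside 5.10% and 5.76% of all probe sets. They were BGLU15, which acts on flavonol glucosides, at -0.46 ± 0.09 (limma adjusted p = 0.00318), and BGLU46 at -0.35 ± 0.09 (limma adjusted p = 0.0135). Without mock replicate 2 of Columbia BGLU42 was also called, higher by 0.38 (limma adjusted p = 0.0386). Under DEX, 3 were higher and 1 lower, beside 11.7% and 9.74% of all probe sets. The higher ones were BGLU25 at 0.48 ± 0.14 (limma adjusted p = 0.0210), PYK10 (BGLU23), the main glucosidase of the ER bodies of roots, at 0.47 ± 0.10 (limma adjusted p = 0.00234), and BGLU42, known for a role in root immunity, at 0.33 ± 0.10 (limma adjusted p = 0.0257). BGLU16 was the lower one, at -0.34 ± 0.09 (limma adjusted p = 0.0136). Among these, the calls of BGLU25 and BGLU42 each ended with 4 of the 12 arrays left out in turn, and those of BGLU16 and, under mock, BGLU46 with 1.

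**Figure D4:**
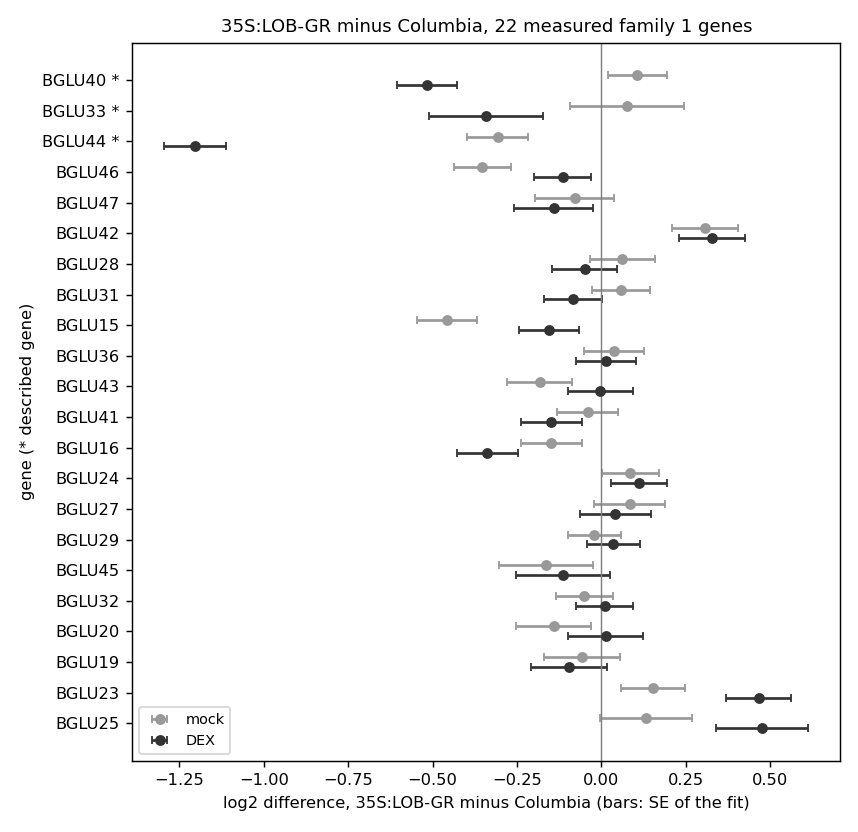
Log2 difference, 35S:LOB-GR minus Columbia (horizontal axis), of the 22 measured family genes (vertical axis, in the order of the DEX difference in 35S:LOB-GR) under mock (grey) and DEX (black); bars are the SE of the limma fit. BGLU44 has the lowest values under DEX, at -1.20, and is at -0.31 under mock, where BGLU33 and BGLU40 lie at 0.08 and 0.11.

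**Figure D5:**
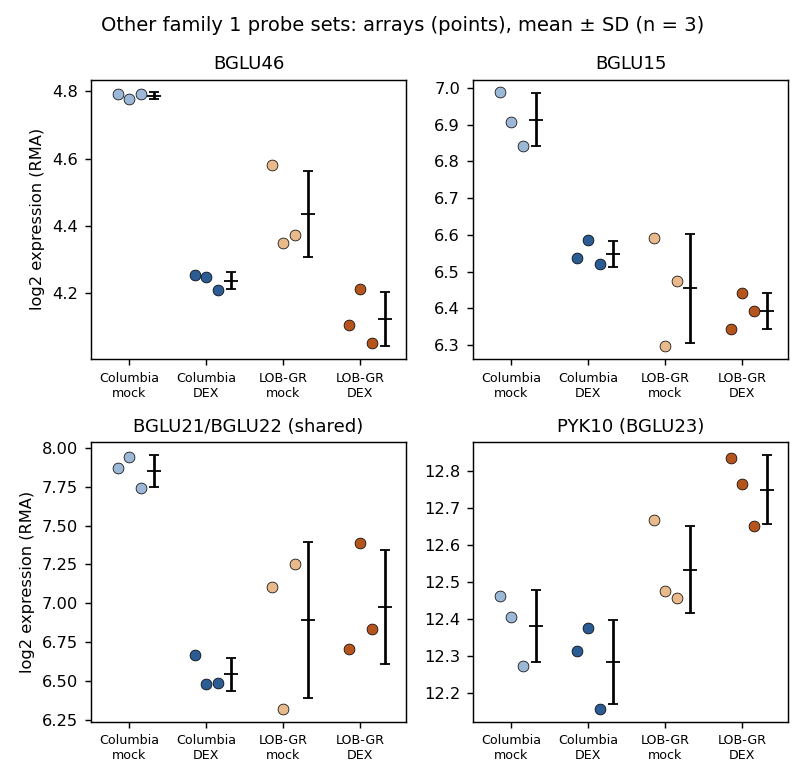
Log2 expression (vertical axis, RMA) of BGLU46, BGLU15, the probe set shared by BGLU21 and BGLU22, and PYK10 (BGLU23) in the 4 groups (horizontal axis); points are the 3 arrays of a group, bars the group mean ± SD, and each panel has its own vertical range, which does not start at 0. In Columbia the BGLU46 arrays lie at 4.78 and 4.79 under mock and at 4.21 to 4.25 under DEX, and the PYK10 mean is highest in 35S:LOB-GR under DEX, where 1 array overlaps its mock group.

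Genes that work on the same substrates were read from lists chosen with earlier results of these data known. For BGLU33, the abscisic acid conjugation list had 3 other measured genes of 7, all glucosyltransferases that make the glucose ester. None was called for DEX in either genotype with all arrays: UGT71C5 was at -0.38 (limma adjusted p = 0.0881) in 35S:LOB-GR and -0.29 in Columbia, UGT71B6 at 0.14 and 0.04, and UGT71B8 at -0.06 and -0.02. Without mock replicate 3 of 35S:LOB-GR UGT71C5 was called at -0.49 (limma adjusted p = 0.0410). The response genes COR15A and COR15B, 2 measured of 19, were at -0.26 and -0.62 for DEX in 35S:LOB-GR, neither called with all arrays. COR15A measured 6.53, 6.01 and 6.90 under mock and 7.80, 5.53 and 5.33 under DEX, so DEX replicate 1 stood far above the other two. Without that array COR15A was at -1.05 (limma adjusted p = 0.0040) and COR15B at -0.98 (limma adjusted p = 0.0232), both called, and without DEX replicate 3 COR15A was at 0.18. COR15A was higher in 35S:LOB-GR under mock, by 2.25 ± 0.45 (limma adjusted p = 0.00398), where BGLU33 differed by 0.08.

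For BGLU44, the mannan list had 1 measured gene of 18, CSLA3 (CSLA03 in RefSeq), a member of the mannan synthase family. It was at -0.27 for DEX in 35S:LOB-GR (limma adjusted p = 0.187) and at 0.11 in Columbia. Under DEX it was lower in 35S:LOB-GR than in Columbia by a log2 difference of -0.59 ± 0.12 (limma adjusted p = 0.00169), beside -1.20 for BGLU44. The beta-galactosidase list had 1 measured gene of 17, BGAL16, at -0.16 for DEX in 35S:LOB-GR (limma adjusted p = 0.312).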

How the data were processed

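The deposited values are log2 expression values of 22810 probe sets on 12 one-colour arrays, and per the submitters' processing notes the authors used RMA to make them. Its version and the genome build are not given in the sources used here, so no coordinates are printed. RMA gives all arrays one distribution, which can hide a change that most transcripts share. The 64 control probe sets were left out. Of the 22746 tested, the platform annotation named 1 gene for 13513, several for 503 and none for 8730. Names were updated with a RefSeq table of TAIR10.1, which matched 13436 probe sets.

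Means of the 4 groups were fitted over all 12 arrays with limma 3.58.1 in R 4.3.3 (eBayes, 8 residual and 6.86 prior degrees of freedom), without a replicate block. Tests were two-sided, adjusted by the Benjamini-Hochberg method over 22746 probe sets and called at an adjusted p under 0.05. The p-values measure the spread between the arrays of a group, whose number, 3, limits the precision. The fit was first tested on simulated data with 200 changed probe sets. Of changes of 0.5 (log2) it called 70.1% for DEX in Columbia, 64.2% for DEX in 35S:LOB-GR and 16.4% for the difference of responses. For changes of 1 these shares were 100.0%, 100.0% and 97.0%. A missing call for a small difference of responses therefore does not show equal responses.

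The 3 genes and all gene lists were chosen with earlier results of these data known. Named beside the 3 genes are other family genes with a call in any of the 5 comparisons, up to 4 genes of each list with the largest DEX difference in 35S:LOB-GR, and the 5 probe sets nearest in profile. The rule's part on protein identity was not applied. Alternatives were median-centred arrays, a filter on dim probe sets, eBayes with trend, array weights, fits of the 6 arrays compared, a replicate block, a threshold of 0.01 and each array left out. Replicate numbers were not taken to pair the arrays.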

Additional observations from a re-analysis of the deposited data

Results flagged for a closer look

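Limma called the DEX response different between the genotypes for 1085 probe sets. Among them were JAL33, the 1 such gene of the lists, and a probe set shared by family genes. BGLU33, BGLU40 and BGLU44 were not tested for this. The probe set shared by BGLU21 and BGLU22, glucosidases of the root family branch of PYK10 that cannot be told apart on this array, had a response higher in 35S:LOB-GR by 1.39 ± 0.29 (log2, SE, limma adjusted p = 0.0106). It was looked up after its values were seen and lies outside the one-gene probe sets. It fell in Columbia by 1.31 ± 0.20, from 7.87, 7.94 and 7.74 to 6.66, 6.48 and 6.49 (limma adjusted p = 0.0325), and measured 7.11, 6.32 and 7.25 under mock and 6.70, 7.39 and 6.83 under DEX in 35S:LOB-GR. The Columbia call ended without mock replicate 1 or 2 or any DEX replicate of Columbia, with limma adjusted p up to 0.178, and the difference of responses stayed called with each of the 12 arrays left out in turn.

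JAL33, a jacalin-related lectin, had a response that was higher in 35S:LOB-GR than in Columbia by 0.78 ± 0.15 (limma adjusted p = 0.00629). This difference also stayed called with each array left out in turn.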

How the results depend on the processing

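The differences of BGLU33, BGLU40 and BGLU44 kept their sign in all 5 comparisons under every alternative run. BGLU33, with a mean just under the limit of 5.93, was not kept by the filter on dim probe sets. In Columbia none of the 3 was called for DEX under any of them. With a replicate block the DEX difference in Columbia had a limma adjusted p of 0.264 for BGLU33. That block changed no call of the 3 genes, which were tested in this comparison only. It lowered the SE of the BGLU33 difference of responses from 0.24 to 0.19 and slightly raised those of BGLU40 and BGLU44. Intervals were not computed with the block, so whether that of BGLU33 would still hold 0 is not given. The numbers of calls moved more. For DEX in Columbia the 13 calls became 42 with trend and robust variance, 399 with array weights, 407 with the 6 arrays fitted alone, 8 with the replicate block and 2 at a threshold of 0.01. With 1 array left out they ran from 2 (without mock replicate 1 or any DEX replicate of Columbia) to 141 (without DEX replicate 1 of 35S:LOB-GR). For DEX in 35S:LOB-GR 1500 were called with the 6 arrays alone and 1299 at 0.01. At 0.01 the difference of responses had 474 calls, the genotypes under mock 1308 and under DEX 3018. The block also ended the Columbia calls of BGLU46 (limma adjusted p = 0.0591) and of the BGLU21 and BGLU22 probe set (limma adjusted p = 0.0639). Same-numbered arrays had correlations of their deviations from -0.228 to 0.191, and 14 of 36 comparisons were best with the array's own number, so the numbers were not taken to pair arrays. A stricter threshold and fewer arrays call fewer by construction, and the cause of the other moves was not tested.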

Other observations

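ER bodies are compartments of seedlings and roots that store PYK10. For DEX in 35S:LOB-GR 2 of the 6 measured ER body genes, of 12 listed, rose and none fell, beside 3.97% and 5.99% of all probe sets, with a median of 0.37 against 0.02 over all. NAI1, the transcription factor that ER bodies need, rose by 0.81 ± 0.14 (limma adjusted p = 9.19e-04), from 6.36, 6.28 and 6.38 to 6.81, 7.45 and 7.20. JAL33 rose by 0.72 ± 0.11 (limma adjusted p = 3.40e-04). JAL22, another lectin, was at 0.47 (limma adjusted p = 0.0763), and was called at 0.69 without DEX replicate 3 of 35S:LOB-GR (limma adjusted p = 0.0041). NAI2, an ER body protein, was at 0.26 (limma adjusted p = 0.228). Under DEX 5 of the 6 were higher in 35S:LOB-GR than in Columbia, as were 11.7% of all probe sets, led by NAI2 at 0.85 ± 0.12 (limma adjusted p = 1.40e-04). The NAI1 call under DEX ended when the 6 arrays were fitted alone (limma adjusted p = 0.0552), and without DEX replicate 2 or 3 of 35S:LOB-GR or DEX replicate 2 of Columbia. In Columbia none of the 6 was called for DEX by limma, and none had an unadjusted p under 0.05.

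Of 8 measured monolignol genes of 23 listed, 2 fell with DEX in 35S:LOB-GR, BGLU46 and UGT72E1, beside 5.99% of all probe sets, with a median of 0.03 for the list. UGT72E1, which glucosylates lignin precursors, fell by 0.40 ± 0.10 (limma adjusted p = 0.0219), a call that ended without mock replicate 1 or 2 or DEX replicate 1 or 2 of 35S:LOB-GR. UGT72E2 was at 0.34 (limma adjusted p = 0.171), called at 0.51 without DEX replicate 3 (limma adjusted p = 0.0319), and UGT72B1 at 0.17 (limma adjusted p = 0.514). The lists of myrosinase partners, abscisic acid synthesis and beta-xylosidases had 0 genes matched to a one-gene probe set. As the annotation named no gene for 8730 probe sets, this does not show that the array lacks them. For DEX in 35S:LOB-GR the shoot apex gene LAS was at -0.14, the leaf genes RCA and PSAN at -0.10 and -0.21, and the root hair genes EXPA7 and EXPA18 at 0.14 and 0.05, none called by limma.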
